A study of Sus scrofa with 92 samples.

Results

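Skeletal muscle was represented by 20 RNA-seq libraries of pigs (Sus scrofa), 10 from the psoas major, a muscle of the loin that lies under the spine, and 10 from the longissimus dorsi, which runs along the back. They were chosen by the tissue named in the labels, from 92 libraries in all. The 20 muscle libraries were set against the 63 libraries of the other 7 single tissues, which comprised 9 of heart, 9 of liver, 10 of spleen, 8 of lung, 9 of kidney, 9 of subcutaneous adipose and 9 of ovary. The remaining 9 libraries were mixtures of several tissues and were left out. All animals were 60 days old, and no treatment or mutation is named. The 5 Chinese breeds were Tibetan wild boar, Rongchang, Meishan, Jinhua and Bamei, and the 5 Western breeds were Piétrain, Large White, Landrace, Hampshire and Berkshire. Each breed gave 1 library per tissue. Tibetan wild boar gave spleen and both muscles, and Rongchang gave no lung. The labels do not say which animals gave the tissues, whether animals were pooled, or what their sex was. The breeds therefore served as replicates, and the p-values set a tissue difference against the variation among these breeds' libraries. With 1 library per breed and tissue, variation between animals, breeds and libraries cannot be told apart.

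Skeletal muscle is made of long fused fibres packed with sarcomeres, in which thick myosin filaments pull on thin actin filaments anchored at the Z disc. A nerve signal at the neuromuscular junction spreads along the fibre membrane, opens the ryanodine receptor of the sarcoplasmic reticulum and releases the calcium that starts contraction. Fast fibres draw mainly on glycogen and glycolysis, slow fibres mainly on mitochondrial respiration, and the longissimus dorsi of pigs is a typical fast-fibre muscle. Heart is also striated muscle, but uses its own forms of many sarcomere proteins and relies on respiration.

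Levels are given in FPKM (sequenced fragments divided by transcript length and by the library's mapped fragments) scaled between libraries by the median ratio over genes, so that levels of different genes are compared per length. Differences are in log2(scaled FPKM + 1), skeletal muscle minus the other tissue, with both muscles averaged within a breed. A gene was called higher in skeletal muscle than in each other tissue when all 7 differences exceeded 1 and the largest of the 7 p-values, from limma with breed as a block and Benjamini-Hochberg adjustment over all genes, was below 0.05. The difference quoted for a gene is that from the nearest tissue unless another is named. In whole tissue, fewer cells of a type and less RNA per cell cannot be told apart.

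The muscle libraries listed 10175 to 11388 genes at 1 FPKM or more (median 10885.5), against 10742 to 14561 (median 12634) in the other libraries. The 20 most abundant genes took 43.2 to 63.8% of all FPKM in muscle libraries and 19.8 to 79.9% in the others. Read totals are not given in the files, and relative depth estimated from the steps between low values was 0.812 to 1.41 in muscle and 0.727 to 1.36 elsewhere. Some values of exactly 0 cannot be taken as absence. ACTA1, the actin of adult skeletal muscle fibres, was listed at 0 in 6 of 10 psoas major and 9 of 10 longissimus dorsi libraries, and reached 37098 and 33577 FPKM as deposited in other libraries of the same muscles. Such a zero, with 100 FPKM or more for another breed in that muscle, was found for 115 genes, and the mitochondrial genes ATP6, ATP8, COX1 and COX3 were among them. No difference is quoted for these genes, but they stayed in the tests and list counts. ACTA1 was among the thin filament genes and HDAC9 among the myogenic regulators, and neither was called. Without genes of this kind in any tissue, 418 genes rather than 423 were higher in muscle than in each other tissue. A gene listed at 0 in every library of a tissue, as ALB was in liver, is not marked by that tissue under this rule. The comparison therefore does not cover such zeros.

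Of 17207 genes tested, 423 (2.46%) were higher in skeletal muscle than in each other tissue, and 23 (0.134%) were lower. A further 312 (1.81%) were high in skeletal muscle and heart alike, which means that both exceeded each of the other 6 tissues and differed from each other by at most 1. The counts of list members given below are to be read beside these shares of all genes. Muscle had the highest level among the tissues that a breed gave, in all 10 breeds, for 393 of the 423. The 423 were chosen on these same breeds, so this count is a description and no separate support. For Tibetan wild boar the count compares muscle with spleen alone. For 353 of the genes tested (2.05%) every muscle library lay above every other library, and for 31 (0.18%) every muscle library lay below. Heart was the nearest tissue for 189 of the 423 and subcutaneous adipose for 78. With FPKM as deposited the counts were 211, 163 and 170. The median difference of all genes then lay between -0.03 (liver) and -1.02 (ovary), against between 0.00 and -0.12 with scaling. The share of calls that were higher was 94.8% with scaling and 56.4% as deposited.

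The 423 genes carried 8.89 to 33.9% of the FPKM of all tested genes in muscle libraries (median 20.3%), and 1.11 to 3.24% in heart (median 2.62%). The genes high in muscle and heart alike carried a median of 18.7% in muscle and 22.6% in heart. The 2 sets thus took similar shares of FPKM in muscle libraries, while the muscle set was a small share in heart. FPKM are per length, so these are not shares of RNA. The set high in both included mitochondrially encoded genes at very high levels, among them COX2 and ND3, with muscle means of 46453 and 31289. Both sets were chosen on these libraries, so the shares are a description.

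Taken pair by pair, heart was the tissue with the fewest differences from muscle. Skeletal muscle was higher than heart for 995 genes (5.78%) and lower for 923 (5.36%). It was higher than adipose for 1906 (11.1%) and lower for 1883 (10.9%). The counts were 2221 higher (12.9%) and 2624 lower (15.2%) against kidney, and 2416 higher (14.0%) and 2924 lower (17.0%) against liver. They were 2781 higher (16.2%) and 2553 lower (14.8%) against spleen, and 2559 higher (14.9%) and 2929 lower (17.0%) against lung. Ovary gave the most lower calls, with 2432 higher (14.1%) and 3434 lower (20.0%). The balance of the 2 directions depended on scaling. The share of calls that were higher was 51.9% against heart, 45.2% against liver, 52.1% against spleen, 46.6% against lung, 45.8% against kidney, 50.3% against adipose and 41.5% against ovary. With FPKM as deposited it was 29.0% for heart, 39.5% for liver, 17.7% for spleen, 11.5% for lung, 15.2% for kidney, 19.7% for adipose and 9.6% for ovary.

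**Figure D1:**
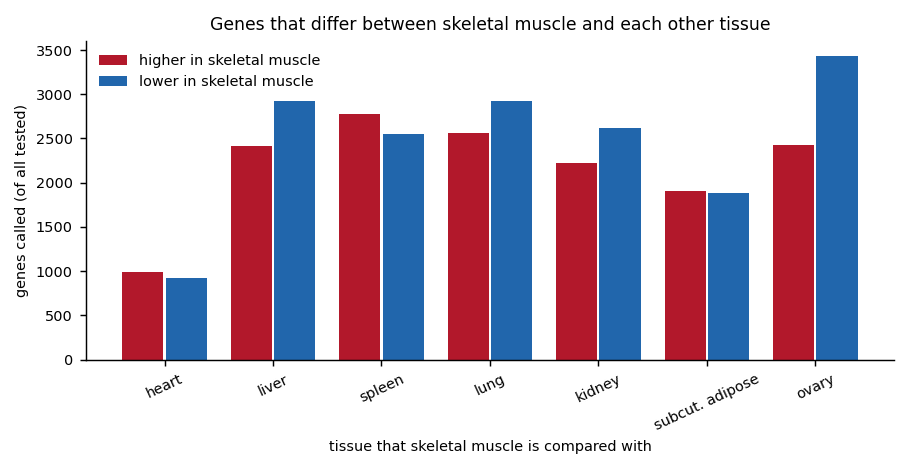
Number of genes called higher (red) and lower (blue) in skeletal muscle than in each other tissue, from limma on 73 breed profiles with adjusted p below 0.05 and a log2 difference beyond 1. Heart has the fewest calls (995 higher and 923 lower) and ovary the most lower calls (3434); as deposited, without scaling, the share of higher calls was smaller in every comparison.

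MYL11, TNNC2, MYL1, SLN and MYOZ1 were named as muscle markers with earlier results of these data known. Their levels, differences and p-values therefore describe the muscle libraries and are no test of muscle identity. MYL11, the phosphorylatable light chain of fast myosin, ranged from 8614 to 57400 scaled FPKM in the muscle libraries (median 26930), against 0 to 1266 in all other libraries. TNNC2, the calcium-binding troponin of fast fibres, ranged from 6653 to 33250 in muscle (median 17480), against at most 1006 elsewhere. MYL1, the essential light chain of fast myosin, ranged from 5745 to 34770 (median 17180), against at most 746 elsewhere. The groups did not overlap for any of the 3. SLN, the small peptide sarcolipin that restrains the calcium pump, ranged from 2959 to 13000 in muscle (median 7402), against at most 278.7. MYOZ1, a Z-disc protein of fast fibres that binds calcineurin, ranged from 1713 to 6151 (median 3453), against at most 158.6. The smallest of the 7 log2 differences was 8.65 ± 0.38 (SE) for SLN, 8.35 ± 0.48 for MYL1, 8.32 ± 0.51 for MYL11, 8.22 ± 0.46 for TNNC2 and 8.01 ± 0.36 for MYOZ1. The adjusted p-values lay between 5.13e-21 (MYL11) and 1.92e-28 (SLN). Muscle was the highest of the tissues that a breed gave, in all 10 breeds, for each marker.

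The nearest tissue for all 5 markers was subcutaneous adipose. The adipose medians were 48.8 for MYL11, 31.3 for TNNC2, 25.9 for MYL1, 11.7 for SLN and 8.62 for MYOZ1. Heart, the other striated muscle, had medians of 0.985 for MYL11, 0.879 for TNNC2, 3.57 for MYL1, 0.765 for SLN and 0.954 for MYOZ1. The highest adipose library was that of Meishan for each of the 5. It was also the highest adipose library for MYH8 (405.1), ATP2A1 (416.7), CASQ1 (151.7), PYGM (259.4) and MYF6 (9.07). Without the Meishan libraries the smallest difference was 9.13 for SLN, 8.84 for MYL1, 8.80 for MYL11, 8.75 for TNNC2 and 8.46 for MYOZ1, and 423 genes were called higher, 414 of them among the 423 called with all breeds. The source of these transcripts in adipose was not tested.

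Within muscle, the 5 markers were lowest in a Bamei library. The longissimus dorsi medians were 36540 for MYL11, 23540 for TNNC2, 21040 for MYL1, 8801 for SLN and 4039 for MYOZ1. The psoas major medians were 21960, 15610, 14600, 6911 and 3227 in the same order of genes. The gap between these medians was small beside the gap to the other tissues.

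**Figure D2:**
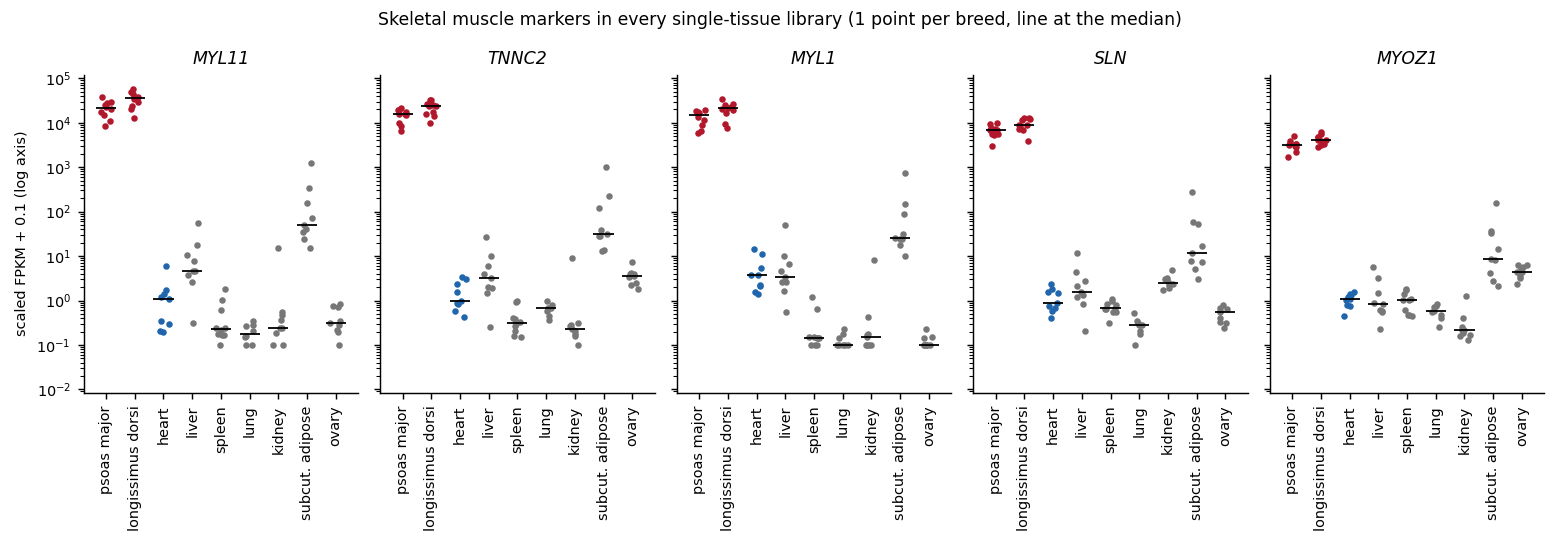
Scaled FPKM plus 0.1 (log axis) of the 5 muscle markers in every single-tissue library, psoas major and longissimus dorsi first; each point is a library and the short line is the tissue median. The muscle points lie above all others in each panel (at least 8614 for MYL11, 1713 for MYOZ1), and the highest adipose point, from Meishan, reaches 1266 for MYL11 and 158.6 for MYOZ1.

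Genes of the thick filament were among those with the largest excess. Of 22 listed, 14 were tested, and 9 were higher in skeletal muscle than in each other tissue, with a median smallest difference of 6.63, against -1.0 over all genes tested. MYBPC2 and MYBPC1, the fast and slow forms of myosin binding protein C that brace myosin to actin, had medians of 1564 and 1199 in muscle. In heart the medians were 0.368 for MYBPC2 and 0.0138 for MYBPC1. Their smallest differences were 7.79 ± 0.33 for MYBPC2 and 7.45 ± 0.29 for MYBPC1, both from adipose, and no library of another tissue reached the muscle range. MYBPH, a related short binding protein, varied widely among the muscle libraries, between 35.6 (Hampshire psoas major) and 3000 (Landrace psoas major), with a median of 541.7. All the same, its highest value outside muscle was 19.2 and its smallest difference was 7.20 ± 0.34.

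The myosin heavy chains need care, because their sequences are nearly identical and MYH1, MYH2, MYH4 and MYH7, which encode the main adult chains, carry no symbol in the files. MYH8, known as the perinatal chain, was listed at 1562 to 9928 in muscle (median 5325), with a smallest difference of 8.23. MYH3, the embryonic chain, was far lower in muscle, at 11.6 to 120.2 (median 31.8), yet exceeded every other library, where it was at most 3.56. MYH13, the chain of eye muscles, was listed at 68.7 to 829.9 (median 356.2). How reads were divided among these chains was not tested, so their levels are uncertain. The heart chain MYH6 was listed at 620 to 4444 in muscle (median 1374) and 3344 to 5927 in heart (median 4497), and is uncertain for the same reason.

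On the thin filament, 8 of 13 members tested (22 listed) were higher than in each other tissue, and the median smallest difference was 3.82. NEB encodes nebulin, the giant ruler of thin filaments. It ranged from 431.6 to 1097 in muscle (median 599.6), against at most 22.1 elsewhere, and its smallest difference was 7.53 ± 0.26 (adjusted p = 3.30e-34). TMOD4, the skeletal tropomodulin that caps the filament's pointed end, had a median of 652 in muscle and 0.673 in heart. The tropomyosins TPM2 and TPM1 averaged 5591 and 9842 in muscle, with smallest differences of 3.82 and 1.22. Among these genes LMOD2, which elongates thin filaments, was high in muscle and heart alike, with medians of 403.7 in muscle and 224.1 in heart.

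Fast-fibre and slow-fibre genes differed in the comparison with heart. Of 8 fast-fibre genes tested, 7 were higher than in each other tissue (87.5%, against 2.46% of all genes). The median smallest difference was 7.80. The fast-fibre genes are also counted on the filament or calcium release lists, and they include the markers MYL11, TNNC2 and MYL1. The exception, the calcium buffer PVALB, ranged from 0.587 (Bamei psoas major) to 609.8 (Large White longissimus dorsi) in muscle and from 1.30 to 48.5 in kidney, so the groups overlapped. Of 6 slow-fibre genes tested, 2 were higher than in each other tissue and the other 4 were lower than in heart, with a median smallest difference of -1.26. All 6 slow-fibre genes were higher than in each of the 6 tissues other than heart. TNNT1 and TNNI1, troponins of slow skeletal fibres, had medians of 2178 and 2094 in muscle. The heart medians were 52.7 for TNNT1 and 106.6 for TNNI1. The differences from heart were 5.15 ± 0.29 and 4.91 ± 0.39. MYL3 and TNNC1, the ventricular light chain and the troponin C that slow fibres and heart both use, were lower in muscle than in heart. MYL3 ranged from 822.9 to 5489 in muscle (median 1860) and from 7659 to 12100 in heart (median 9191), a difference of -2.41 ± 0.29 (adjusted p = 1.91e-10). TNNC1 ranged from 2986 to 9820 in muscle (median 4251) and from 8006 to 10640 in heart (median 9812), a difference of -1.10 ± 0.31 (adjusted p = 0.00211). The groups were separate for MYL3 and overlapped for TNNC1.

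Cardiac forms were far lower in muscle than in heart. TNNT2, cardiac troponin T, had medians of 12.1 in muscle and 5259 in heart, and the difference was -8.71 ± 0.23. MYBPC3, the cardiac binding protein C, had medians of 0.0435 in muscle and 687 in heart. RYR2, the cardiac ryanodine receptor, had medians of 0.092 in muscle and 73.1 in heart. ACTC1, cardiac actin, which developing skeletal muscle also makes, stood higher in muscle than these, at 57.4 to 2169 (median 347.9), against 2580 to 9442 in heart (median 7015). All muscle libraries lay below all heart libraries for these 4 genes. Of 11 heart markers tested, 10 were lower in muscle than in heart, where 5.36% of all genes were.

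Genes of the Z disc, the M band and titin's partners were mostly high in muscle alone or in muscle and heart. Of 18 members tested (32 listed), 8 were higher than in each other tissue and 7 were high in muscle and heart alike. The remaining 3 were lower in muscle than in heart: CSRP3, a stretch-linked LIM protein (-1.41), TRIM55, a titin-binding ligase (-1.15), and PDLIM5, an actinin-binding protein (-1.01). All 18 were higher in muscle than in each of the 6 non-striated tissues. Besides MYOZ1, the muscle set held PDLIM3, an actinin-binding protein (median 1171 in muscle and 17.5 in heart, smallest difference 4.87 from spleen), and MYOT, myotilin, which cross-links actin at the Z disc (864.5 in muscle and 86.0 in heart, difference 3.17). XIRP2, an actin-binding repeat protein of the attachment sites that was listed with the thin filament, had medians of 638.6 in muscle and 5.80 in heart. The set held in common with heart included TCAP, the titin cap, with 1355 to 5459 in muscle (median 2955) and 1270 to 2921 in heart (median 2153). Its difference from heart was 0.43 ± 0.28, with an adjusted p of 0.207. ACTN2, the actinin of striated Z discs, had medians of 1398 in muscle and 723 in heart, a difference of 0.85 ± 0.25 (adjusted p = 0.00309). MYOM2 and MYOM1, the myomesins that tie myosin at the M band, had medians of 501.1 and 277.8 in muscle. The heart medians were 274.8 for MYOM2 and 178.6 for MYOM1.

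CKMT2, the mitochondrial creatine kinase of striated muscle, showed the largest excess over the 6 non-striated tissues among the named genes high in muscle and heart alike. It ranged from 458.3 to 2351 in muscle (median 1122) and from 452.5 to 945.5 in heart (median 765.8). The smallest difference from the other 6 tissues was 8.18 (adjusted p = 2.98e-37), and muscle minus heart was 0.58 ± 0.25 (adjusted p = 0.0466). Next came TCAP (7.49), ACTN2 (7.39), MYOM2 (7.20) and LMOD2 (6.83). They were followed by ART3, an ADP-ribosyltransferase family member (6.63), MYOM1 (6.29) and SRL, sarcalumenin, a calcium-binding glycoprotein of the sarcoplasmic reticulum (6.24). All 8 had higher medians in muscle than in heart, and the ranges of muscle and heart overlapped for each.

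**Figure D3:**
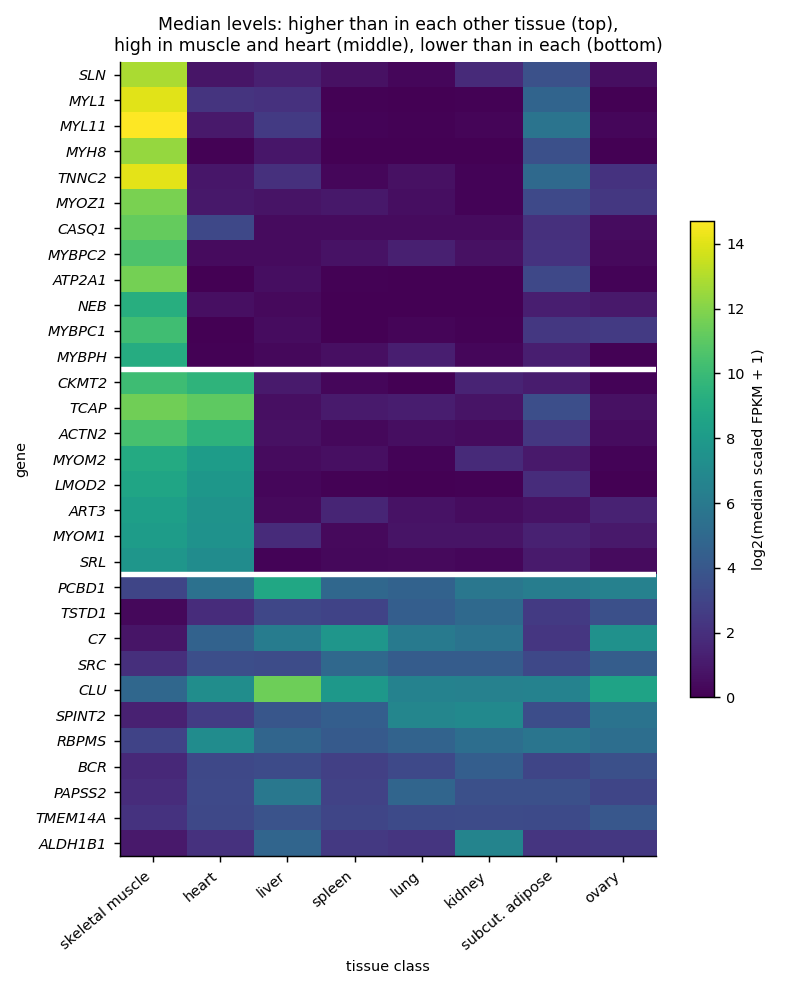
Median level by tissue, as log2(median scaled FPKM + 1), of the 12 named genes with the largest excess in skeletal muscle (top block), the 8 named genes high in muscle and heart alike (middle) and 11 named genes lower in muscle than in each other tissue (bottom). The top block is bright, which marks high levels, in the muscle column, for example NEB at 599.6 in muscle and 0.507 in heart, and the middle block is bright in muscle and heart.

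Excitation and calcium release was the list with the largest count of calls outside the sarcomere and metabolism. Of 34 genes listed, 22 were tested, 16 were higher than in each other tissue and 2 were high in muscle and heart alike, with a median smallest difference of 2.73. CASQ1, the calsequestrin that stores calcium in fast fibres, ranged from 809.3 to 4633 in muscle (median 2390) and from 4.67 to 20.5 in heart (median 7.98), a difference of 7.82 ± 0.37 (adjusted p = 7.76e-27). ATP2A1, the calcium pump of fast fibres, ranged from 1357 to 4590 in muscle (median 3160), against 0 to 0.757 in heart (median 0.0262). Its smallest difference was 7.68 ± 0.40, from adipose. CACNG1, a subunit of the voltage sensor that triggers release, was at least 65.9 in every muscle library (median 257.1), against at most 11.6 elsewhere. SLN, described above, is also on this list and had its largest smallest difference, 8.65. The remaining members had smaller differences than these genes. BIN1, which shapes the transverse tubules, had a smallest difference of 4.09. SCN4A, the sodium channel of muscle action potentials, had 3.09, and TRDN, triadin, which links calsequestrin to the release channel, had 2.43.

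Genes of the neuromuscular junction were at low levels. Of 12 tested, 3 (25%, against 2.46% of all genes) were higher than in each other tissue with scaled FPKM and 1 with FPKM as deposited, and the median smallest difference was -1.05, close to the -1.0 of all genes. CHRNA1, the alpha subunit of the muscle acetylcholine receptor, ranged from 0.704 to 4.55 in muscle (median 1.5), against at most 0.291 elsewhere. MUSK, the kinase that gathers receptors at the synapse, ranged from 0.639 to 5.21 (median 1.52), against at most 0.368. CHRNA10, a receptor subunit best known from the inner ear, ranged from 1.60 to 13.7 (median 3.82), against at most 0.333. The muscle libraries lay above all others for these 3 genes, but their smallest differences, 1.28 for CHRNA1, 1.10 for MUSK and 2.27 for CHRNA10, are held down by the added 1 FPKM. CHRNE, the adult receptor's epsilon subunit, was lower in muscle (1.04 to 4.89, median 2.30) than in ovary (3.70 to 14.2, median 9.90). ACHE, the enzyme that ends the signal, was highest in muscle among the tissues given in all 10 breeds but had a smallest difference of 0.90, under the threshold.

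The membrane and the dystrophin complex gave 7 genes higher than in each other tissue and 6 high in muscle and heart alike among 17 tested. With FPKM as deposited, the first count was 4. TRIM72, which patches membrane tears, ranged from 110.8 to 252 in muscle (median 159.5), against at most 8.53 elsewhere, with a smallest difference of 6.28 ± 0.17. CAPN3, the calpain of skeletal muscle, had medians of 241 in muscle and 5.88 in lung, the nearest tissue. ANO5, a membrane protein whose loss causes a limb girdle dystrophy in people, had medians of 35.7 in muscle and 0.847 in ovary. KLHL40, which stabilises thin filament proteins, ranged from 39.2 to 428.1 in muscle (median 91.5), against at most 2.85. DMD, dystrophin itself, was high in both striated muscles, at 8.37 to 43.0 in muscle (median 19.8) and 6.88 to 14.8 in heart (median 11). The difference of 0.76 ± 0.13 (adjusted p = 1.34e-06) stayed under the threshold of 1. Its autosomal relative UTRN, utrophin, was lower in muscle (median 8.54) than in adipose (28.4).

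Glycogen breakdown and glycolysis formed the largest metabolic group of the muscle set. Of 39 tested (43 listed), 18 were higher than in each other tissue, with scaled FPKM, with FPKM as deposited and with quantile scaling. The median smallest difference was 0.66. PYGM, muscle glycogen phosphorylase, which cuts glucose units from glycogen, ranged from 1373 to 10270 in muscle (median 4247) and from 50.7 to 125 in heart (median 94.0). The difference was 5.59 ± 0.35 (adjusted p = 6.08e-21). PPP1R3A, which targets a phosphatase to glycogen, had medians of 145.1 in muscle and 11.1 in heart. PHKG1, the catalytic subunit of the kinase that switches phosphorylase on, had medians of 45.0 and 5.37 in the same 2 tissues. GYS1, muscle glycogen synthase, was also higher (median 69.0 in muscle and 24.4 in heart, difference 1.51). Both the making and the breaking of glycogen were therefore represented among the calls.

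The glycolytic steps that followed were higher as well. PFKM, the rate-setting phosphofructokinase of muscle, had medians of 1159 in muscle and 299.4 in heart (difference 2.05 ± 0.23). GAPDH was listed at 15700 to 72030 in muscle (median 34740) and 5700 to 8646 in heart (median 7172), a difference of 2.31 ± 0.16. TPI1, PGK1 and PKM, which act before, after and at the end of that stretch, had differences from heart of 2.41, 2.56 and 2.08. LDHA, the lactate dehydrogenase subunit that favours lactate, ranged from 946.6 to 9845 in muscle (median 4253), against at most 236.3 in any other library. Its nearest tissue was liver (median 118.7), and the difference was 5.01 ± 0.21 (adjusted p = 1.31e-29). HK2, a hexokinase, was not called, with 1.88 to 31.2 in muscle (median 11.6) and 3.74 to 12.5 in adipose (median 4.81).

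For enzymes with several gene copies, the muscle form was the higher copy in muscle, and in heart this held for 3 of the 4 pairs described. PYGM exceeded PYGB, the brain form of phosphorylase, in 20 of 20 muscle libraries (medians 4250 and 0.503) and in 0 of 9 heart libraries (94.0 and 310). PGAM2, the muscle phosphoglycerate mutase, exceeded PGAM1 in 20 of 20 muscle libraries (4650 and 30.9) and in 8 of 9 heart libraries (335 and 204). ENO3, the muscle enolase, exceeded ENO1 in all 20 muscle libraries (11600 and 80.3), and its median in heart was also above that of ENO1 (1540 and 46.7). PFKM exceeded PFKP, the platelet form, in all 20 muscle libraries (1160 and 7.42) and in 9 of 9 heart libraries (299 and 31.4). In the other direction, PYGB was lower in muscle than in heart by 7.72 ± 0.13, and PGAM1 had medians of 30.9 in muscle and 204.3 in heart. These pairs were picked after their values were seen and carry no test of the choice.

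**Figure D4:**
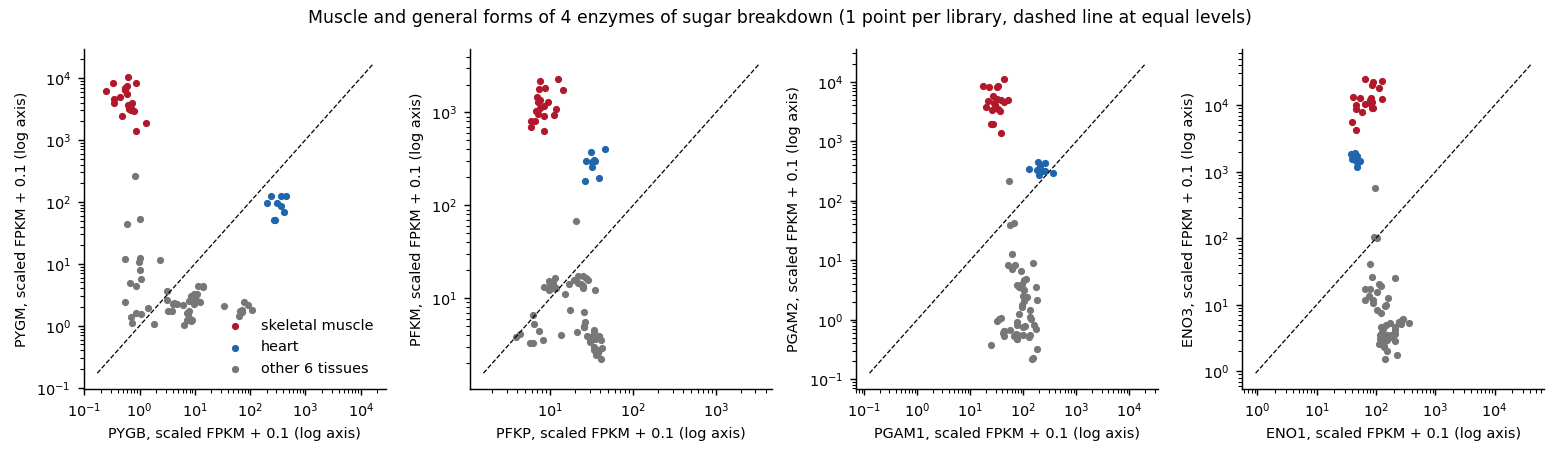
Scaled FPKM of the muscle form against the other form of 4 enzymes (log axes), PYGM against PYGB, PFKM against PFKP, PGAM2 against PGAM1 and ENO3 against ENO1; each point is a library, red for skeletal muscle, blue for heart and grey for the other 6 tissues, and the dashed line marks equal levels. The muscle points lie on the side of the muscle form in each panel, and the heart points lie on the PYGB side in the first (medians 94.0 for PYGM and 310 for PYGB).

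Adenine nucleotide enzymes added a few large differences. Of 11 genes for phosphocreatine and adenine nucleotides tested, 3 were higher than in each other tissue and CKMT2 was high in muscle and heart alike. AMPD1, the AMP deaminase of skeletal muscle, ranged from 76.2 to 970.5 in muscle (median 411.1), against at most 31.5 elsewhere, and had a smallest difference of 6.97 ± 0.27. AK1, the cytosolic adenylate kinase, ranged from 221.6 to 3046 in muscle (median 1416) and from 68.4 to 140.1 in heart (median 111), a difference of 3.52 ± 0.32. ADSL, adenylosuccinate lyase, which acts with AMPD1 in the purine nucleotide cycle, had medians of 70.2 in muscle and 24.1 in heart. CKB, the brain-type creatine kinase, was low in muscle (median 3.73) and higher in kidney (58.8). The muscle-type kinase CKM was not matched by symbol and is not analysed here.

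Among 6 genes of oxygen and carbon dioxide handling, CA3 was called (16.7%, against 2.46% of all genes). CA3, a carbonic anhydrase of slow muscle fibres and adipocytes, ranged from 544.6 to 5483 in muscle (median 1764) and from 13.6 to 1379 in adipose (median 359), so single libraries overlapped. The difference was 2.70 ± 0.49 (adjusted p = 1.46e-05), with muscle above adipose in 9 of the breeds. CA2 had medians of 2.23 in muscle and 40.1 in kidney, where it acts in acid handling. VEGFA, the vessel growth factor, did not pass the difference of 1, with medians of 83.7 in muscle and 45.4 in heart.

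Respiratory chain genes were, with scaled FPKM, mostly high in muscle and heart alike. Of 24 nuclear genes of the respiratory chain tested, 0 were higher than in each other tissue and 21 were high in muscle and heart alike. With FPKM as deposited that count was 7, and with quantile scaling 11. The median difference from heart was -0.17, with 0 genes higher and 1 lower. Against the other 6 tissues, 21 to 23 of the 24 were higher in muscle, where 11.1 to 16.2% of all genes were. NDUFA4, a subunit associated with cytochrome c oxidase, ranged from 2032 to 4847 in muscle (median 3243) and from 3279 to 4823 in heart (median 4426), a difference of -0.39 ± 0.08 (adjusted p = 6.96e-05) that stayed within 1. ATP5F1A, the alpha subunit of ATP synthase, had medians of 1302 in muscle and 1678 in heart, and its difference of -0.18 ± 0.10 did not pass (adjusted p = 0.127).

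Genes of the tricarboxylic acid cycle gave fewer calls of this kind. Of 24 tested, 1 was higher than in each other tissue (4.2%, against 2.46% of all genes) and 8 were high in muscle and heart alike. With FPKM as deposited, the count for muscle and heart alike was 3. The single gene was PDK4, the kinase that turns off pyruvate dehydrogenase when fat is burned. It ranged from 348 to 1784 in muscle (median 1095) and from 128.9 to 496.5 in adipose (median 257.2), a difference of 2.15 ± 0.28 (adjusted p = 2.97e-09). Heart had a PDK4 median of 133.3. Of 19 genes of fatty acid oxidation tested, 0 were higher than in each other tissue, and CPT1B, the carnitine transferase of muscle mitochondria, and SLC27A1, a fatty acid transporter, were high in muscle and heart alike, a count of 2 that was 0 with FPKM as deposited. Against liver 4 of the 19 were higher and 5 lower, where 14.0% and 17.0% of all genes were. Against lung 18 were higher, where 14.9% of all genes were. ACSL1, which activates fatty acids, had medians of 257.5 in muscle and 1067 in liver. UCP3, an uncoupling protein of muscle and brown fat mitochondria, had medians of 85.8 in muscle and 56.4 in adipose, and its difference of 0.53 was under the threshold. Of 13 genes of branched chain amino acid breakdown, BCKDK, the kinase that holds back their oxidation, was the sole call, as high in muscle and heart alike (77.7 in muscle and 83.5 in heart); with FPKM as deposited its smallest difference from the other 6 tissues changed sign, to -0.20.

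Transcription factors of the muscle lineage marked the tissue at lower levels. Of 24 myogenic regulators tested (31 listed), 12 were higher than in each other tissue, with a median smallest difference of 1.00. The count was 12 with quantile scaling and 6 with FPKM as deposited. MYF6, which is kept on in mature fibres, ranged from 76.9 to 522.7 in muscle (median 186.9), was listed at 0 in all 9 heart libraries and reached at most 9.07 elsewhere. MYOD1, which commits cells to the lineage, ranged from 4.88 to 70.5 (median 44.8), against at most 0.904. MYF5, the earliest of the family in the embryo, ranged from 2.03 to 5.70 (median 3.48), against at most 0.189. The 3 factors thus differed in level within muscle, with MYF6 highest and MYF5 lowest, and each was separate from every other tissue. Their smallest differences were 6.51 ± 0.21 for MYF6, 4.74 ± 0.19 for MYOD1 and 2.12 ± 0.04 for MYF5.

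Cofactors followed. VGLL2, a partner of TEAD factors, had a median of 35.5 in muscle, against at most 1.72 elsewhere. PITX3, known from eye lens and muscle, had a median of 17.3, against at most 0.856. MEF2C, which works with the MYOD family, had medians of 87.3 in muscle and 31.2 in heart (difference 1.39 ± 0.09), whereas its relative MEF2A had 23.4 in muscle and 25.5 in heart (difference 0.01 ± 0.10). MEF2A was among the genes high in muscle and heart alike, and with FPKM as deposited its smallest difference from the other 6 tissues was -0.01. SMYD1, a methyltransferase of striated muscle, had 88.9 in muscle and 92.0 in heart.

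Genes of satellite cells, the stem cells under the fibre's sheath, were called in 3 of 10 tested (30%, against 2.46% of all genes). The median smallest difference was -1.89, against -1.0 over all genes. Against liver 6 of the 10 were higher and 3 lower, where 14.0% and 17.0% of all genes were. Against spleen 7 were higher and 3 lower, where 16.2% and 14.8% of all genes were. MYMK, the membrane protein that drives myoblast fusion, ranged from 4.80 to 26.3 in muscle (median 10.6), against at most 2.78 elsewhere. CDH15, the cadherin of satellite cells, had medians of 13.9 in muscle and 3.63 in ovary, its nearest tissue. MSTN, myostatin, the secreted brake on muscle growth, ranged from 2.64 (Berkshire) to 33.1 (Large White) in muscle (median 9.03) and from 0.752 to 3.43 in heart (median 1.81). Its difference from heart was 1.94 ± 0.18 (adjusted p = 1.40e-13), and the lowest muscle library lay inside the heart range. Among 10 growth factors and hormones of muscle, MSTN was the single call (10%, against 2.46% of all genes). FNDC5, the precursor of irisin, had medians of 3.09 in muscle and 9.05 in liver.

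Ubiquitin ligases and related genes of muscle protein breakdown were higher than in each other tissue for 5 of 19 tested, and high in muscle and heart alike for 9. The first count was 2 with FPKM as deposited and 3 with quantile scaling. ASB5, a substrate adaptor of ubiquitin ligases, ranged from 70.7 to 354.2 in muscle (median 155.8), against at most 10.3 elsewhere. KLHL33, another adaptor, had a median of 28.4, against at most 2.17. The atrophy ligases TRIM63 and FBXO32 belonged to both striated muscles. TRIM63 had medians of 273.6 in muscle and 186 in heart, and FBXO32 had 68.3 in muscle and 33.5 in heart. FBXO32 varied widely among the muscle libraries, between 6.62 and 255.9. Of 17 proteasome subunits, PSMD11, a lid subunit, was called (114.5 in muscle and 56.0 in liver), which is 5.9% against 2.46% of all genes, and with FPKM as deposited the count was 0. The other 16 were not. Of all 17, 14 were higher in muscle than in lung and 12 than in kidney, where 14.9% and 12.9% of all genes were.

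**Figure D5:**
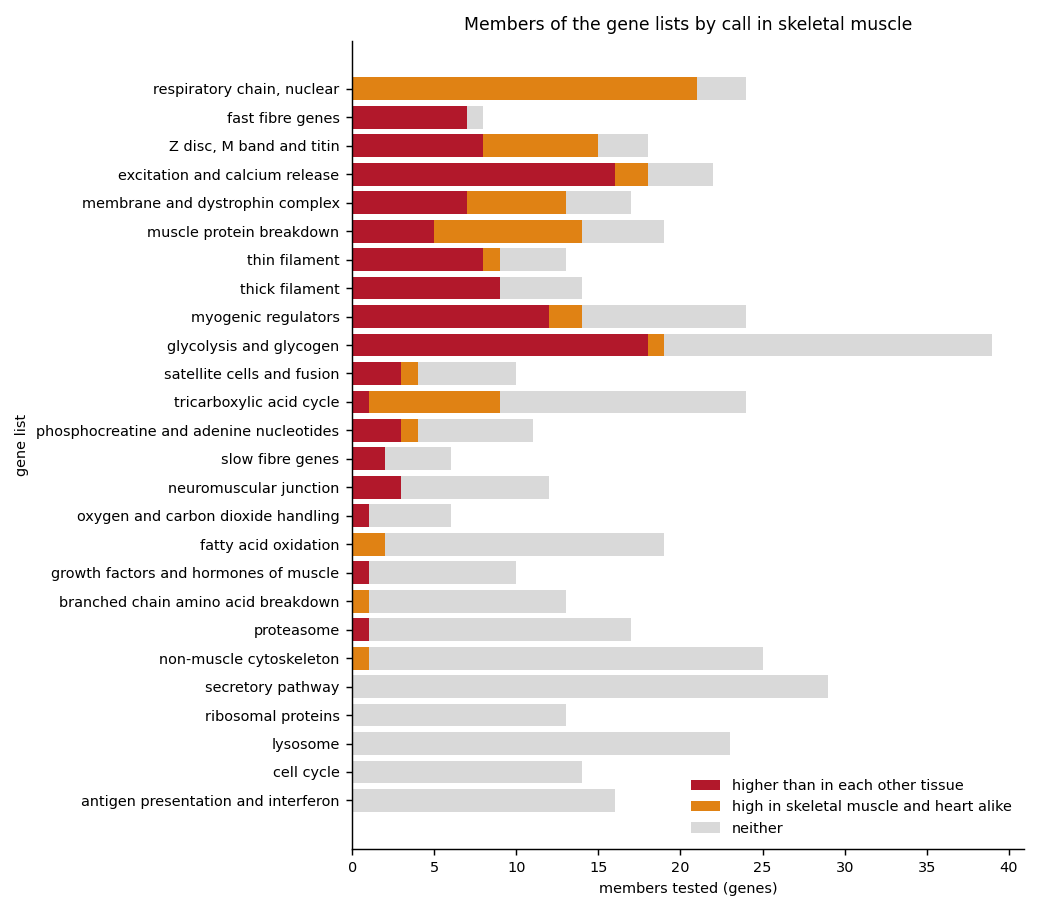
Number of tested members of each gene list that were higher in skeletal muscle than in each other tissue (red), high in skeletal muscle and heart alike (orange) or neither (grey), for the 26 lists that are not cell or tissue markers. Glycolysis and glycogen (18 of 39) and excitation and calcium release (16 of 22) have the most red members, and the respiratory chain (21 of 24) is mostly orange; with FPKM as deposited the respiratory chain count was 7.

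With scaled FPKM, 23 genes were lower in skeletal muscle than in each other tissue, against 163 as deposited and 81 with a pseudocount of 0.1. Of the 23, 18 had a mean under 10 in muscle. Their median muscle level was 3.14, near the 3.89 of all genes tested. For 8 of the 23 the muscle libraries lay below every other library, as they did for 0.18% of all genes tested. PCBD1, a cofactor of the transcription factor HNF1 and an enzyme of tetrahydrobiopterin recycling, ranged from 4.33 to 12.4 in muscle (median 7.56), against 17.9 to 483.6 in all other libraries. Lung was nearest, with a difference of -1.55 ± 0.10 (adjusted p = 2.93e-20), and liver was highest (median 426.7). SRC, the founding member of the Src tyrosine kinases, ranged from 1.46 to 5.56 in muscle (median 3.02), against 4.84 to 34.5 elsewhere. BCR, a signalling protein that restrains Rac, ranged from 1.69 to 2.70 (median 2.22), against 4.02 to 26.6. PCBD1 and BCR were separate from every other library, while for SRC the highest muscle value passed the lowest of the others.

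RBPMS, an RNA-binding protein that shapes splicing in heart and smooth muscle, separated both striated muscles. It ranged from 5.23 to 11.3 in skeletal muscle (median 6.89), against 116.7 to 165.3 in heart (median 143.9), where it was highest. PAPSS2, which makes the sulfate donor for proteoglycans, ranged from 1.25 to 4.08 in muscle (median 2.70), against 5.13 to 99.2 elsewhere, and TMEM14A, a small mitochondrial membrane protein, from 1.06 to 5.58 (median 3.43), against 6.52 to 23.8. Secreted proteins were among the lower genes too. CLU, the chaperone clusterin, had a median of 29.7 in muscle and 2854 in liver, and its largest difference was -1.21 (adjusted p = 0.00132). C7, a complement component, had medians of 0.79 in muscle and 3.96 in adipose, and 211.5 in spleen. ALDH1B1, a mitochondrial aldehyde dehydrogenase, had 1.05 in muscle and 97.9 in kidney. SPINT2, an inhibitor of epithelial proteases, had 1.54 in muscle and 124.7 in kidney, and TSTD1, a sulfurtransferase, had 0.261 in muscle and 31.6 in kidney.

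Genes of general cell functions were compared pair by pair. With scaled FPKM, none of the secretory, lysosomal, cytoskeletal, cell cycle or ribosomal genes was lower than in each other tissue, where 0.134% of all genes were. The counts were 4 secretory, 2 lysosomal and 1 cytoskeletal gene with FPKM as deposited, and 1 secretory gene with quantile scaling. Of 29 genes of the secretory pathway, 22 were lower than in liver and 0 higher, with a median difference of -1.78, where 17.0% of all genes were lower. Against the other tissues the lower counts were 9 for spleen, 8 for ovary, 7 for kidney, 5 for lung, 3 for adipose and 1 for heart. Over all genes the lower shares were 14.8% for spleen, 20.0% for ovary, 15.2% for kidney, 17.0% for lung, 10.9% for adipose and 5.36% for heart. The secretory counts for lung, adipose and heart were thus near the share of all genes. HSPA5, the main chaperone of the endoplasmic reticulum, ranged from 40.7 to 147.2 in muscle (median 90.3) and from 249.1 to 688.7 in liver (median 598). CALR, calreticulin, its calcium-binding partner, had medians of 112.7 in muscle and 696.4 in liver. Of 23 lysosomal genes, 17 were lower than in liver, 18 than in lung, 14 than in spleen, 14 than in adipose and 13 than in kidney. Ovary gave 7 lower and 1 higher, and heart gave 3 lower. PSAP, which activates lipid hydrolysis in lysosomes, had medians of 207.6 in muscle and 962.9 in spleen. Of 14 cell cycle genes, 13 were lower than in spleen, 11 than in lung and 10 than in ovary. The lower count was 2 for heart and 0 for liver, kidney and adipose. TOP2A, which untangles DNA in dividing cells, ranged from 0.63 to 13.9 in muscle (median 4.02) and from 14.2 to 33.4 in spleen (median 20.1).

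Non-muscle cytoskeleton genes were lower than in spleen for 15 of 25 and lower than in lung for 15, where 14.8% and 17.0% of all genes were. ACTB, cytoplasmic actin, had medians of 319.9 in muscle and 1994 in spleen, and 352.7 in heart. Of 13 ribosomal protein genes tested, 0 were called against heart, spleen, adipose or ovary. In muscle 8 were higher than in kidney (median difference 1.16), 4 higher than in lung (0.95) and 1 higher than in liver (0.54). Of all genes, 12.9%, 14.9% and 14.0% were higher, in the same order of tissues. RPS3 had medians of 1644 in muscle and 1845 in heart. Of 16 genes of antigen presentation and interferon, 13 were lower in muscle than in spleen, 11 than in lung and 9 than in liver. The lower share of all genes was 14.8% for spleen and 17.0% for lung and for liver. Against ovary 3 were higher and 1 lower, where 14.1% and 20.0% of all genes were. Adipose gave 2 lower, kidney 1 higher and heart 0 calls.

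Few markers of other cell types and tissues were higher in muscle than in each other tissue. SYNPO2, an actin-bundling protein on the smooth muscle list that is also a Z-disc gene, had medians of 186.7 in muscle and 15.7 in heart. SPTB, the red cell spectrin, which muscle also makes, had 52.5 in muscle and 15.3 in heart. Red cell transcripts were also present in muscle. HBB, beta globin, ranged from 165.4 to 2597 in muscle (median 860.4) and from 1088 to 9813 in spleen (median 4196). Of 11 macrophage markers, 9 were lower in muscle than in spleen, and all 12 lymphocyte markers were lower than in spleen. Of all genes, 14.8% were lower than in spleen. C1QA, a complement subunit made by macrophages, had medians of 78.7 in muscle and 2033 in spleen, and PTPRC, the leukocyte antigen CD45, had 3.75 in muscle and 182.5 in spleen.

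Fat and matrix transcripts were lower in muscle than in subcutaneous adipose. Of 10 adipocyte markers, 9 were lower than in adipose and 6 were higher than in heart, where 10.9% and 5.78% of all genes were. PLIN1, which coats lipid droplets, ranged from 0.717 to 14.6 in muscle (median 3.18) and from 374.7 to 662.6 in adipose (median 482.5). GPD1, an adipocyte marker that also acts in the glycerol phosphate shuttle of muscle, was the exception, at 519.4 in muscle and 288.5 in adipose (difference 0.94). Of 20 fibroblast and matrix markers, 17 were lower than in adipose and 16 higher than in kidney, where 10.9% and 12.9% of all genes were. Against heart 18 of the 20 were not called, and against lung 14 were not. SPARC, a matrix glycoprotein, had medians of 596.1 in muscle and 3847 in adipose. None of the 11 kidney, 9 lung or 11 ovary markers was higher in muscle than in its own tissue. UMOD, the urine protein of the kidney tubule, had a median of 0.248 in muscle and 1698 in kidney. SFTPC, a lung surfactant protein, had 0.255 in muscle and 2486 in lung.

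Liver markers were unevenly spread over the muscle libraries. ALB, albumin, cannot serve as a check because it was listed at 0 in all 9 liver libraries. It ranged from 0.121 to 169.2 in longissimus dorsi (median 31.6), from 0.0565 to 10.3 in psoas major (median 0.342) and from 16.4 to 150 in adipose (median 47.3). AHSG, fetuin A, ranged from 0 to 43.4 in longissimus dorsi (median 6.42) and from 0 to 2.44 in psoas major, where its median was listed at 0, against 5691 to 29640 in liver. APOA1, the main protein of high-density lipoprotein, had medians of 33.6 in muscle and 8984 in liver. Of 16 liver markers tested, 15 were lower in muscle than in liver, where 17.0% of all genes were. The part of these transcripts in the muscle results was not tested.

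A pair of genes stood out in muscle beside neighbours of known muscle function. EFCAB7, known from the cilium, ranged from 284.7 to 4074 in muscle (median 1357), with a smallest difference of 3.23 ± 0.14. In the Sscrofa11.1 annotation it neighbours PGM1, the phosphoglucomutase of glycogen metabolism, which has no symbol in the files. BBS5, also known from the cilium, ranged from 369.2 to 990.3 (median 676.5), with a smallest difference of 3.19 ± 0.18. It neighbours KLHL41, a sarcomere assembly gene without a symbol in the files. PFN1, profilin, the single cytoskeleton gene high in muscle and heart alike, neighbours ENO3. The files give 1 value per gene ID, and whether reads of the neighbour entered these values was not tested.

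The study sampled breeds of 2 origins, and the excess of muscle over the mean of heart, liver, spleen, kidney, adipose and ovary could be compared between 4 Chinese and 5 Western breeds. At an adjusted p below 0.05, 3 genes (0.0174%) differed, and 1079 had an unadjusted p below 0.05. CHAD, chondroadherin, a matrix protein of cartilage, was the named gene among the 3. Its excess averaged 0.22 ± 0.14 (SD, n = 4) in Chinese breeds, ranging from 0.06 to 0.36, and -0.56 ± 0.10 (SD, n = 5) in Western breeds, ranging from -0.67 to -0.44. The difference was 0.78 ± 0.09 (SE), with a limma adjusted p of 0.0439, but CHAD was low throughout muscle (median 0.878). Leaving out any of the 9 breeds raised its adjusted p to between 0.0539 and 0.211, and with FPKM as deposited it was 0.106. The other 2 genes have no symbol. LOX, the enzyme that cross-links collagen, and KCNE1, a potassium channel subunit, missed the threshold with differences of 0.94 and 2.61 (adjusted p = 0.0824 for each).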

How the data were processed

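RNA was sequenced from 9 tissues and from tissue mixtures of pigs of 10 breeds. The deposited values are FPKM per gene, made by the authors with TopHat and Cufflinks 2.2.1 on Sscrofa10.2, per the submitters' processing notes, and the files give no read counts. The values are therefore normalized, and a count test was not used. Tables of 25322 gene IDs were joined across breeds, and 11804 of the IDs carried a symbol. A symbol held by more than 1 ID was represented by its most abundant ID. A gene was tested when it had at least 1 FPKM in at least 3 libraries. FPKM were scaled by median ratios between libraries, turned into log2(scaled FPKM + 1), and psoas major and longissimus dorsi were averaged within a breed. This gave 73 profiles, to which limma 3.58.1 (R 4.3.3, statmod 1.5.0, trend and robust variance) was fitted with breed as a block. Breeds pair the libraries by label. The largest of the 7 two-sided p-values was adjusted by Benjamini-Hochberg over all genes. A fold on this scale understates the change of low genes. Tables and plots used Python 3.11.15, pandas 2.3.3, numpy 2.4.6 and matplotlib 3.10.9.

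Before use, the procedure was tested on simulated data. The genes named are the 5 markers, the 12 with the largest excess, the 12 lower and the 8 high in muscle and heart with the largest differences. They also include up to 4 called members of each of 39 lists (or the 2 most abundant members where none was called) and up to 4 genes for breed origin. Some results that this rule names are not reported here. Further genes were named for comparison after their values were seen. Members, markers and lists were chosen with earlier results of these data known. Breed origin was assigned from general knowledge. Alternatives were FPKM as deposited, quantile scaling, another pseudocount (0.1), other filters and thresholds, each muscle alone, zeros left out, no breed block and leaving out each breed. Cufflinks values listed at 0 beside high values were not read as absence, and no 2 libraries were identical. Relative depth was estimated from steps between low FPKM values, so the read totals, and with them counting intervals, are not given.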

Additional observations from a re-analysis of the deposited data

Results flagged for a closer look

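In 167 named genes, the muscle level of each breed was checked for a breed whose gap to the nearest of the others was large beside the range of all 10 breeds. The critical share of the range is 0.466, and 15 genes passed it, where chance alone passes about 1 in 20 of such groups. No explanation was weighed for any of them.

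Tibetan wild boar had the highest level of several genes that slow fibres and heart use. The troponins TNNT1 and TNNI1 stood at 4472 and 4489 scaled FPKM in Tibetan wild boar. The other breeds reached 1555 to 2388 for TNNT1 and 1611 to 2303 for TNNI1, so the gap took 0.594 of the range for TNNT1 and 0.651 for TNNI1. MYL3, the light chain of slow fibres and ventricle, stood at 4030 against 1414 to 1946 in the other breeds (0.695). TNNC1 stood at 9021 against 3667 to 5138 (0.625). MYH6, whose level is uncertain among near-identical chains, stood at 3607 against 871 to 1648 (0.551). FNDC5 was lowest in this breed, at 1.14 against 2.41 to 4.15 (0.528).

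Bamei had the lowest level of 5 genes. SLN stood at 3360 in Bamei, against 6195 to 11442 in the other breeds (0.499). CACNG1 stood at 82.0 against 164.7 to 358.2 (0.472), and AK1 at 383.8 against 885.6 to 2082 (0.494). GPD1 stood at 170.4 against 382.5 to 948 (0.471), and MYH13, again uncertain, at 119.2 against 234.6 to 478.9 (0.486). Bamei was highest for ACTA1 (0.475), but that gene was listed at 0 in most libraries and carries no comparison.

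PPP1R3A was lowest in Jinhua, at 73.9 against 116.4 to 178 in the others (0.515). ACTB was highest in Rongchang, at 720 against 206.5 to 366.2 (0.542). NAPSA, a protease of lung, was highest in Meishan, at 8.20 against 0.27 to 2.42 (0.501).

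The excess of muscle over 6 other tissues differed between Chinese and Western breeds for 3 genes by limma. The log2 difference, Chinese minus Western, was 0.78 for CHAD (adjusted p = 0.0439). It was 1.21 for ENSSSCG00000008142 (adjusted p = 0.0439) and 1.74 for ENSSSCG00000027712 (adjusted p = 0.00486), which have no symbol in the files.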

How the results depend on the processing

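Scaling and the size threshold moved the counts most. With FPKM as deposited, 211 genes were higher than in each other tissue, 163 lower and 170 high in muscle and heart alike. The pairwise counts were then 607 higher and 1484 lower against heart, 1322 and 6130 against spleen, 985 and 7565 against lung, 987 and 5511 against kidney, 1006 and 4097 against adipose, and 927 and 8731 against ovary. All 211 were among the 423. The smallest difference from the 6 non-striated tissues changed sign for BCKDK (-0.20) and MEF2A (-0.011). With a pseudocount of 0.1, lower calls were 81 against each tissue, 1561 against heart, 4527 against lung, 3284 against adipose and 5289 against ovary. The cause of these changes was not tested.

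With a log2 difference beyond 2, the counts were 162 higher, 2 lower and 110 high in both. Pairwise they were 348 higher and 303 lower for heart, 1017 and 1353 for liver, 1213 and 1037 for spleen, 1026 and 977 for lung, 847 and 1131 for kidney, 754 and 445 for adipose, and 1037 and 1061 for ovary. With any difference they were 1322, 554 and 845. Pairwise they were then 4398 and 4356 for heart, 6180 and 6178 for liver, 6067 and 6329 for spleen, 5649 and 7057 for lung, 5593 and 6467 for kidney, 5104 and 6162 for adipose, and 5684 and 7797 for ovary. These follow from the threshold itself.

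Without the breed block the counts were 431, 25 and 309, so the pairing by breed changed no count by more than 1.5 times. Leaving out each breed gave 416 to 435 higher, 19 to 24 lower and 306 to 317 high in both. Of 2206 values for 97 named genes, 2130 kept their direction and side of the threshold, 73 lost the call, 1 gained it and 2 changed sign. Breed origin was the least stable result. Its count of 3 was 1 without the filter, without trend and robust variance, and with psoas major or longissimus dorsi alone, and ranged from 1 to 3 without a breed: it was 1 without any breed of the 9 except Rongchang, where it was 3 but did not include CHAD; the cause was not tested.

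Limits are as follows. The read depth is unknown, each breed and tissue gave a single library, and whether tissues of a breed came from the same animal is not stated. Values listed at 0 beside high ones were read as failed estimates, which was not tested, and genes without a symbol could not be placed in lists. The added 1 FPKM shrinks differences of low genes such as CHRNA1.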
